A study of Mus musculus with 20 samples.

Results

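Arg1, Arg2, Nos2, Slc7a2, Ass1, Odc1 and Gch1 encode enzymes and a transporter that take up, consume or regenerate arginine. They were read from the rows that carry these gene names, 7 of the 78317 genes listed, of which 34342 had a count in any library. Transcripts were measured by 3' end RNA sequencing in 20 libraries of bone marrow-derived macrophages (BMDMs), with 4 libraries for each of 5 treatments. All BMDMs came from wildtype C57BL/6J female mice, were grown with L929 fibroblast-conditioned medium and were treated on day 7 of culture in medium without serum. The treatments were PBS or fractions of bronchoalveolar lavage fluid (BALF), the saline wash of the airways, from mice with ovalbumin-induced airway inflammation. RNY1, a small noncoding YRNA, was intact in the fluid donors called RNY1+/+ and deleted on both alleles by CRISPR in those called RNY1-/-, so genotype here is that of the donors of the fluid and never of the macrophages. EVFx is the fraction of a size exclusion column enriched for extracellular vesicles, given at 35000000 particles/µL, and ProteinFx is the later, protein-enriched fraction, given at 0.75 µg/µL, so the fractions were not dosed on 1 scale. Fractions were stored for 5 days at 4 °C before use. All library names share the same prefix, and the labels used here name no batch. Nothing in the labels tells whether libraries of 1 treatment stem from separate mice, fluid pools or wells, so p-values measure only the spread between these libraries, which may be technical.

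Arginine is shared by competing enzymes in macrophages. Nitric oxide synthase turns it into citrulline and nitric oxide, a defence molecule of classically activated macrophages, whereas arginase splits it into ornithine and urea, a hallmark of alternatively activated mouse macrophages and of allergic airways. Cationic amino acid transporters bring arginine in, argininosuccinate synthase helps to rebuild it from citrulline, ornithine feeds the polyamines through ornithine decarboxylase, and nitric oxide synthase needs tetrahydrobiopterin, whose synthesis starts with GTP cyclohydrolase.

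The libraries held between 2510005 and 8277366 counts (median 5456425). A count of 3, taken as the floor of measurement, equalled 0.362 to 1.20 CPM, the unit in which a gene's count is scaled to the same total in every library. All 10 macrophage markers tested averaged at least 10 CPM in every group. Some libraries stood apart from their replicates. PBS library 3 differed from the other PBS libraries by a chi-square of 16.8 to 34.7 per gene, and RNY1-/- ProteinFx libraries 1 and 2 differed from libraries 3 and 4 by 13.3 to 15.7, against 2.30 to 10.5 in the 23 other pairs of replicates. In 6 of the 7 genes, the values of RNY1-/- ProteinFx libraries 1 and 2 did not overlap those of libraries 3 and 4, as in 70.4% of the 10572 genes with a mean of at least 3 CPM there. Fold changes also followed the GC content of transcripts, with a Spearman's rho across genes from -0.65 (RNY1-/- against RNY1+/+ EVFx) to 0.59 (difference of the genotype effects between fractions). Genes are not independent replicates, and values with trends in length and GC removed are given for the 7 genes where they change a call. In bulk RNA, fewer cells of a type and less RNA per cell cannot be told apart.

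Arg1 and Slc7a2 were high with ProteinFx, Ass1 was highest with EVFx, Nos2 and Gch1 rose with both fractions of RNY1+/+ fluid, and Odc1 stayed between 20.0 and 34.6 CPM in all 20 libraries. A gene was called where edgeR's quasi-likelihood test gave an adjusted p (Benjamini-Hochberg, over all genes tested) under 0.05 and the log2 fold change lay beyond 1 in either direction. Of the 7 genes, 5 were abundant enough to be tested in RNY1+/+ EVFx against PBS and 4 were called, all higher (Nos2, Slc7a2, Ass1 and Gch1), where 16.4% of all genes tested were called. The same 4 of 5 were called in RNY1-/- EVFx against PBS, beside 22.5% of all genes. With RNY1+/+ ProteinFx, 5 of 6 were called higher than PBS (Arg1, Nos2, Slc7a2, Ass1 and Gch1), beside 21.3% of all genes, and with RNY1-/- ProteinFx 4 of 6 (Arg1, Arg2, Slc7a2 and Ass1), beside 14.3%. Arg1, Arg2, Nos2, Slc7a2 and Ass1 averaged under 3 CPM with PBS, so where they were tested they passed the filter only through the treated group, and the counts do not speak for all 7 genes. These comparisons share the 4 PBS libraries and are not independent of each other. With PBS library 3 left out, the numbers called were 4, 4, 6 and 4, the gene gained with RNY1+/+ ProteinFx being Arg2, which then passed the filter on low values, as it did without any other single PBS library.

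**Figure D1:**
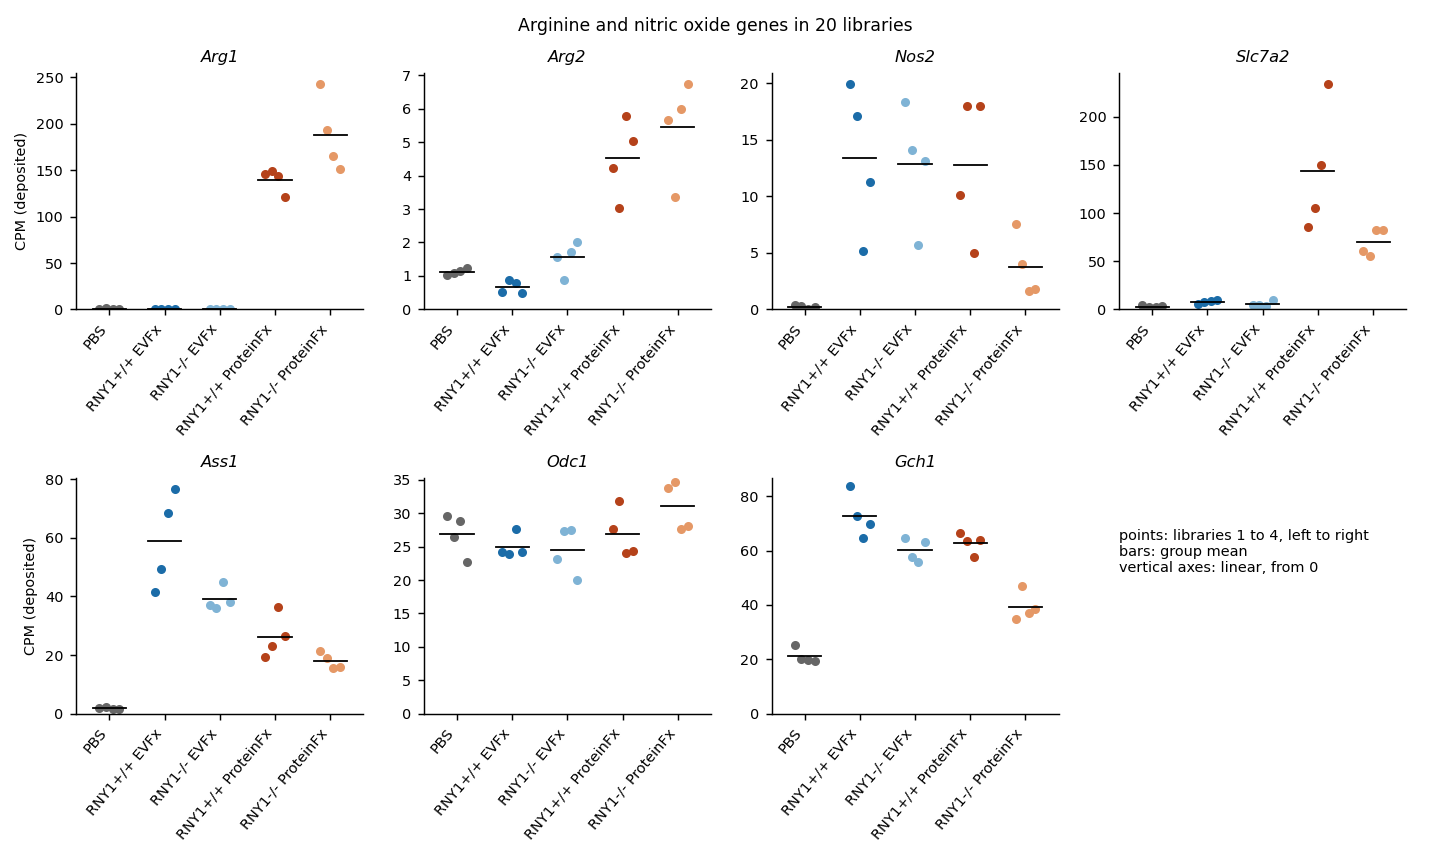
CPM of each gene in every library (points, libraries 1 to 4 from left to right) with group means (bars), on linear axes that start at 0. Arg1 lies between 121 and 242 CPM with ProteinFx and at or below 1.39 CPM elsewhere, Slc7a2 shows the same split with higher RNY1+/+ than RNY1-/- values, Ass1 steps down from RNY1+/+ EVFx to PBS, and Odc1 shows no such steps.

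Arg1 (ENSMUSG00000019987), the cytosolic arginase, was nearly silent unless the macrophages received ProteinFx. Its PBS libraries held 0.615, 1.39, 0.915 and 0.712 CPM, at 3 to 9 counts each. RNY1+/+ ProteinFx gave 146, 149, 144 and 121 CPM, and RNY1-/- ProteinFx gave 242, 193, 165 and 151 CPM. No ProteinFx library overlapped PBS, and the log2 fold changes were 7.35 (SE 0.19, adjusted p = 2.4e-10) for RNY1+/+ and 7.68 (SE 0.24, adjusted p = 1.7e-08) for RNY1-/- by edgeR. With EVFx, Arg1 was at 5, 3, 0 and 1 counts in the RNY1+/+ libraries and at 2, 0, 4 and 0 counts in the RNY1-/- libraries, at or near the floor. Both groups overlapped PBS and fell under the filter on low values. Without that filter the log2 fold changes against PBS were -1.30 (SE 0.60, edgeR adjusted p = 0.124) and -1.58 (SE 0.68, edgeR adjusted p = 0.0741), which did not pass.

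Between the fractions, Arg1 showed the widest gap of the 7 genes. Summed over the 4 libraries it had 2618 counts with RNY1+/+ ProteinFx and 9 with RNY1+/+ EVFx, a ratio of 446 per unit of depth (95% exact interval 235 to 977). For RNY1-/- fluid the sums were 3664 and 6 counts, a ratio of 790 (363 to 2154). These intervals cover counting error only. Both differences were called by edgeR (adjusted p = 9.2e-13 and 9.0e-09).

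Arg2 (ENSMUSG00000021125), the mitochondrial arginase, was low throughout but moved the same way. It was at 1.02, 1.08, 1.14 and 1.25 CPM with PBS, at 4.21, 3.04, 5.78 and 5.03 CPM with RNY1+/+ ProteinFx and at 5.67, 3.36, 5.98 and 6.74 CPM with RNY1-/- ProteinFx. Neither ProteinFx group overlapped PBS. Arg2 rose with RNY1-/- ProteinFx (log2 fold change 2.27, SE 0.32, adjusted p = 0.000443 by edgeR). In RNY1+/+ ProteinFx against PBS it missed the minimum mean of 3 CPM, and with edgeR's own filter alone its log2 fold change was 2.17 (SE 0.29, adjusted p = 7.6e-05). With EVFx it held 4, 7, 4 and 4 counts in RNY1+/+ libraries and 12, 6, 7 and 12 counts in RNY1-/- libraries. On the CPM scale these were 0.517, 0.876, 0.801 and 0.483 against 1.58, 0.894, 1.72 and 2.02, which did not overlap, and the RNY1+/+ values also lay below all PBS values. Arg2 was not tested there for its low level, and without a filter the difference was 1.23 (log2, SE 0.43, edgeR adjusted p = 0.0259).

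Nos2 (ENSMUSG00000020826), the inducible nitric oxide synthase, was at or under 2 counts in every PBS library and was measurable in all 16 libraries given a fraction. RNY1+/+ EVFx gave 19.9, 17.1, 5.21 and 11.2 CPM, RNY1-/- EVFx 18.4, 14.1, 5.67 and 13.1 CPM, and RNY1+/+ ProteinFx 10.1, 17.996, 5.03 and 18.04 CPM. RNY1-/- ProteinFx was lower, at 7.56, 4.06, 1.59 and 1.82 CPM, from 40, 29, 4 and 7 counts. Against a floor of 3 counts per PBS library, mean levels were at least 23.3-fold, 22.3-fold, 22.3-fold and 6.54-fold higher in this order. The first 3 rises were called by edgeR (adjusted p = 1.5e-05, 4.2e-06 and 1.1e-05). RNY1-/- ProteinFx against PBS was under the filter on low values, and without a filter edgeR gave an adjusted p of 8.9e-13. Library 3 was the lowest of its group for Nos2 in 5 of 5 groups and had the lowest total count in 4 of them. The CPM scale divides by that total, and the labels tie no batch to the number. With replicate number fitted as a block, the first 3 rises stayed called. They were 5.94, 5.91 and 5.86 (log2, edgeR adjusted p = 1.2e-06, 1.6e-07 and 7.2e-06). Why library 3 was low was not tested.

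The balance of Nos2 and Arg1 was described as log2((Nos2 CPM + 1) / (Arg1 CPM + 1)) in each library, a quantity used here to compare groups of libraries. It averaged -0.64 ± 0.34 with PBS (SD, n = 4), 3.37 ± 0.50 with RNY1+/+ EVFx and 3.36 ± 1.07 with RNY1-/- EVFx. ProteinFx put it at -3.49 ± 0.85 (RNY1+/+) and -5.46 ± 0.52 (RNY1-/-). The 8 EVFx libraries lay between 1.75 and 3.94 and the 8 ProteinFx libraries between -6.00 and -2.68, so the fractions did not overlap each other or PBS, and the ProteinFx genotypes did not overlap either. This measure was not tested.

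**Figure D2:**
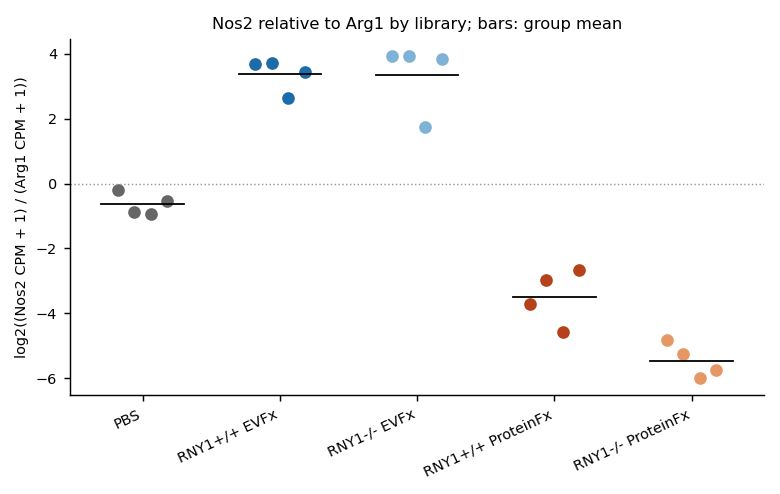
Log2 of Nos2 over Arg1 (CPM plus 1) in each of the 20 libraries, with group means as bars and a dotted line at 0. EVFx libraries sit above 0, from 1.75 to 3.94, and ProteinFx libraries below it, from -6.00 to -2.68.

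Slc7a2 (ENSMUSG00000031596), the cationic amino acid transporter that activated macrophages use for arginine, rose in all 4 comparisons with PBS. PBS libraries held 4.10, 2.32, 2.29 and 3.20 CPM, RNY1+/+ EVFx libraries 5.17, 8.01, 8.81 and 10.3 CPM, and RNY1-/- EVFx libraries 4.86, 4.62, 3.20 and 9.42 CPM. With RNY1+/+ ProteinFx it reached 85.4, 105, 150.0 and 234 CPM, and with RNY1-/- ProteinFx 60.3, 55.7, 82.1 and 82.5 CPM. Each group but RNY1-/- EVFx stood clear of PBS. The log2 fold changes were 1.61 (SE 0.27, adjusted p = 0.000595) and 1.16 (SE 0.36, adjusted p = 0.0164) with EVFx. With ProteinFx they were 5.77 (SE 0.38, adjusted p = 2.8e-07) and 4.62 (SE 0.25, adjusted p = 4.6e-07), all by edgeR. The RNY1-/- EVFx call was lost without its library 4 (0.76, adjusted p = 0.0510) and with length and GC trends removed (0.84, adjusted p = 0.0611). With library totals instead of TMM scaling it was lost too, past the adjusted p but under the fold limit (0.91, adjusted p = 0.0389 by edgeR). ProteinFx exceeded EVFx by 4.17 (SE 0.30) for RNY1+/+ and by 3.45 (SE 0.27) for RNY1-/- fluid (log2, edgeR adjusted p = 3.4e-08 and 1.4e-06).

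Ass1 (ENSMUSG00000076441), argininosuccinate synthase, showed the opposite order between fractions. From 1.95, 2.24, 1.72 and 1.69 CPM with PBS it went to 41.4, 49.2, 68.6 and 76.8 CPM with RNY1+/+ EVFx and to 37.1, 36.0, 45.1 and 38.2 CPM with RNY1-/- EVFx. ProteinFx gave 19.2, 23.1, 36.6 and 26.4 CPM (RNY1+/+) and 21.3, 18.9, 15.7 and 16.1 CPM (RNY1-/-). All fraction libraries lay above all PBS libraries, and all EVFx libraries above the ProteinFx libraries of the same donor genotype. The rises against PBS were 5.07 (SE 0.25) and 4.53 (SE 0.16) with EVFx and 3.89 (SE 0.25) and 3.26 (SE 0.18) with ProteinFx on the log2 scale, with edgeR adjusted p = 7.4e-08, 6.9e-09, 2.0e-07 and 5.5e-07. Against EVFx, ProteinFx was lower by log2 fold changes of -1.17 (SE 0.20, adjusted p = 0.000160) for RNY1+/+ and -1.27 (SE 0.13, adjusted p = 9.2e-06) for RNY1-/- fluid by edgeR. With length and GC trends removed, the first became -0.77 (adjusted p = 0.00281), under the fold limit.

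Gch1 (ENSMUSG00000037580), GTP cyclohydrolase, was present before treatment and changed less. It was at 25.4, 20.2, 19.9 and 19.2 CPM with PBS, at 83.6, 72.8, 64.7 and 69.9 CPM with RNY1+/+ EVFx and at 64.6, 57.5, 55.8 and 63.1 CPM with RNY1-/- EVFx. RNY1+/+ ProteinFx gave 66.4, 63.4, 57.6 and 63.8 CPM and RNY1-/- ProteinFx 35.0, 46.9, 37.1 and 38.6 CPM. Every treated library exceeded every PBS library. Log2 fold changes were 1.96 (SE 0.13), 1.75 (SE 0.13) and 1.74 (SE 0.13) in the first 3 groups, called by edgeR with adjusted p = 5.1e-07, 9.1e-07 and 6.8e-07. In RNY1-/- ProteinFx it was 0.96 (SE 0.15, adjusted p = 0.000851), past the adjusted p but just under the fold limit, and 35.7% of all genes passed the adjusted p alone there. Within RNY1-/- fluid, Gch1 was lower with ProteinFx than with EVFx by a log2 fold change of -0.79 (SE 0.12, adjusted p = 0.000253 by edgeR, which 29.2% of all genes passed), without overlap. Within RNY1+/+ fluid the difference was -0.21 (SE 0.09, adjusted p = 0.0575 by edgeR), with overlap. That value passed the adjusted p in 5 of 17 alternatives, as with length and GC trends removed (-0.35, adjusted p = 0.00327 by edgeR).

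Promoter sequences from RefSeq (GRCm38.p6) were matched for Ass1, Gch1 and Odc1, and those of Arg1, Arg2, Nos2 and Slc7a2 were not used here. The last 30 bases before each start are given because Ass1 and Gch1 rose together while Odc1 was called in no comparison. They lie at chr2:31470240-31470269 (plus strand), chr14:47189414-47189443 (minus strand) and chr12:17544843-17544872 (plus strand), 5′ to 3′, and capitals mark a match to the NF-kB consensus.
Ass1: tcccaggttcctgccccccccaggccctgt
Gch1: cataaaaagagaggcgcggcGGGGCTCCCC
Odc1: gccgccacggagtccccgcccctcccccgc
In the window from 250 bases before to 50 bases after the start, searched on both strands, Gch1 held that match, which reads as the consensus on both strands, and a TATAAA on the opposite strand 188 bases before the start. Ass1 and Odc1 held neither, and none of the 3 held TTCNNNGAA, the letters of the GAS element, or the STAT6 site, which has 1 more base between the same ends. The matches in Gch1 do not overlap each other. Of 32851 promoter windows of this length, 8.46% held the NF-kB consensus, 13.6% TATAAA, 8.3% TTCNNNGAA and 6.95% the STAT6 site. A match is a description of letters and not of binding.

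Odc1 (ENSMUSG00000011179), ornithine decarboxylase and the first enzyme of polyamine synthesis, was at 29.6, 26.4, 28.9 and 22.7 CPM with PBS. EVFx gave 24.2, 23.9, 27.7 and 24.2 CPM (RNY1+/+) and 23.1, 27.4, 27.5 and 20.0 CPM (RNY1-/-). ProteinFx gave 27.7, 31.8, 24.0 and 24.3 CPM (RNY1+/+) and 33.8, 34.6, 27.6 and 28.1 CPM (RNY1-/-). Each treated group overlapped PBS. The log2 differences from PBS were 0.07, 0.10, 0.18 and 0.28, with 95% confidence intervals of -0.22 to 0.36, -0.22 to 0.43, -0.16 to 0.51 and -0.04 to 0.60. Adjusted p by edgeR were 0.672, 0.516, 0.287 and 0.117. With length and GC trends removed, the ProteinFx values became 0.38 (adjusted p = 0.0448) and 0.46 (adjusted p = 0.0215), still under the fold limit. Its counts were fractional in 19 of 20 libraries, as were those of Ass1 in 11, since reads that match several places were shared out, so part of the Odc1 signal is uncertain.

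**Figure D3:**
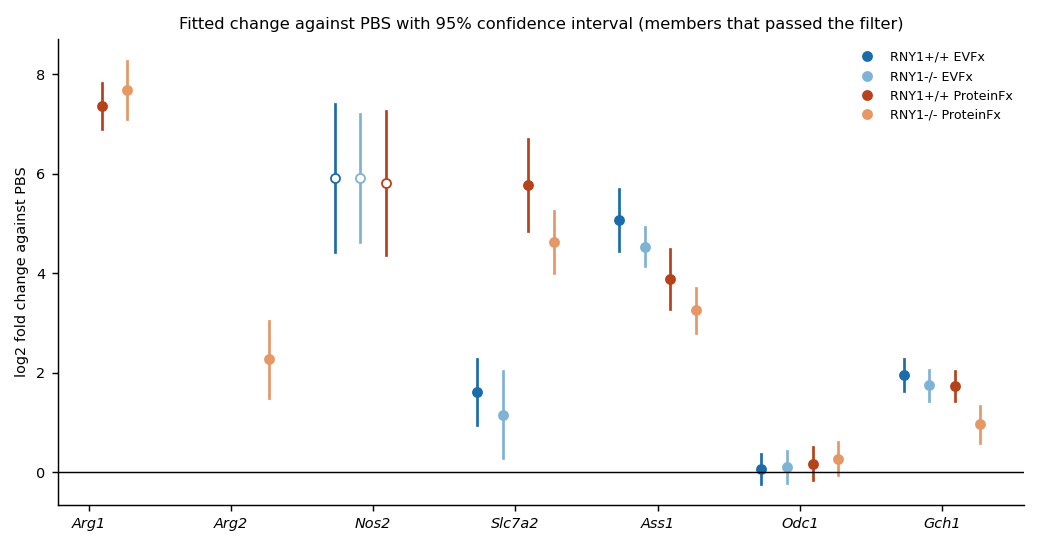
Log2 fold change against PBS with its 95% confidence interval for each gene that passed the filter on low values, 1 colour per treatment. Open points mark Nos2, whose PBS libraries are all at or under 2 counts, so that its fitted value depends on the prior count, and Odc1 lies between 0.07 and 0.28 while Slc7a2 spans 1.16 to 5.77.

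Ordered by mean level, Arg1 ran from RNY1-/- ProteinFx (188 ± 40.2 CPM, SD, n = 4) over RNY1+/+ ProteinFx (139.8 ± 12.8) to PBS (0.908 ± 0.345) and both EVFx groups (0.312 ± 0.466 and 0.286 ± 0.287). PBS and the EVFx groups overlapped. Slc7a2 ran from RNY1+/+ ProteinFx (143 ± 65.9 CPM) over RNY1-/- ProteinFx (70.1 ± 14.2), RNY1+/+ EVFx (8.06 ± 2.14) and RNY1-/- EVFx (5.53 ± 2.699) to PBS (2.98 ± 0.860), and the last 3 neighbours overlapped in turn except that RNY1+/+ EVFx stood clear of PBS. For Ass1 the order was RNY1+/+ EVFx (59.0 ± 16.5), RNY1-/- EVFx (39.1 ± 4.08), RNY1+/+ ProteinFx (26.3 ± 7.43), RNY1-/- ProteinFx (18.01 ± 2.63) and PBS (1.90 ± 0.255), with overlap within each fraction and between RNY1-/- EVFx and RNY1+/+ ProteinFx. Nos2 averaged 13.4 ± 6.54, 12.8 ± 5.29 and 12.8 ± 6.38 CPM in RNY1+/+ EVFx, RNY1-/- EVFx and RNY1+/+ ProteinFx, which could not be ordered, against 3.76 ± 2.77 CPM in RNY1-/- ProteinFx.

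Comparing the fractions directly, 3 of 6 genes tested were called in RNY1+/+ ProteinFx against RNY1+/+ EVFx, where 13.5% of all genes were called. Arg1 and Slc7a2 were higher and Ass1 lower with ProteinFx. For RNY1-/- fluid 5 of 7 were called, where 8.97% of all genes were, with Arg1, Arg2 and Slc7a2 higher and Nos2 and Ass1 lower. With EVFx, Arg1 averaged 0.286 CPM (RNY1+/+) and 0.312 CPM (RNY1-/-), and Arg2 averaged 1.55 CPM (RNY1-/-). Where tested here, Arg1 and Arg2 thus passed the filter only through ProteinFx, and the counts do not speak for all 7 genes. Arg2 was higher by 1.58 (log2, SE 0.33, adjusted p = 0.00301) and Nos2 lower by -1.86 (log2, SE 0.39, adjusted p = 0.00342) in that comparison by edgeR. Nos2 did not differ past the threshold between the RNY1+/+ fractions (log2 fold change -0.08, 95% interval -0.93 to 0.77, edgeR adjusted p = 0.847). Particle and protein doses differ in kind, so these values compare the treatments as given.

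The comparison of RNY1-/- with RNY1+/+ fluid asks how the macrophage response differs with the genotype of the fluid's donors. The study obtained its knockout mice from another supplier than its wild-type mice. It does not say whether the RNY1+/+ donors were littermates. Donor genotype therefore cannot be told apart here from colony or fluid preparation. In EVFx, 0 of the 5 genes tested were called by edgeR, where 2.35% of all genes were, and at an adjusted p under 0.05 alone 1 of 5 passed (Ass1), where 52.1% of all genes did. At an unadjusted p under 0.05, 2 of the 5 passed (Ass1 and Gch1), beside 58.4% of all genes, and DESeq2 also called 0. Ass1 was at 39.1 ± 4.08 CPM with RNY1-/- and 59.0 ± 16.5 CPM with RNY1+/+ EVFx, a log2 fold change of -0.53 (SE 0.17, adjusted p = 0.0189 by edgeR). The groups overlapped, and the value was -0.38 (adjusted p = 0.0579) without RNY1+/+ EVFx library 4 and -0.14 (adjusted p = 0.540) with length and GC trends removed. Nos2 differed by 0.03 (log2, 95% interval -0.78 to 0.83), Slc7a2 by -0.44 (-1.16 to 0.27), Odc1 by 0.04 (-0.22 to 0.30) and Gch1 by -0.20 (-0.43 to 0.02). Without RNY1-/- EVFx library 4, Slc7a2 was at -0.84 (adjusted p = 0.0188 by edgeR). With the trends removed, Gch1 (-0.30, adjusted p = 0.0173) and Odc1 (0.31, adjusted p = 0.0360) passed the adjusted p. Without RNY1+/+ EVFx library 3, Gch1 also passed (-0.26, adjusted p = 0.0345).

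In ProteinFx, 2 of 7 genes were called, both lower with RNY1-/- fluid (Nos2 and Slc7a2), where 1.82% of all genes were called, and 3 of 7 passed the adjusted p alone (with Gch1), where 5.57% of all genes did. Nos2 had a log2 fold change of -1.75 (SE 0.43, adjusted p = 0.0321) by edgeR, with 1 RNY1+/+ library inside the RNY1-/- range. Slc7a2 was lower by -1.14 (log2, SE 0.28, adjusted p = 0.0295 by edgeR), with no overlap. Gch1 differed by -0.76 (SE 0.12, adjusted p = 0.00278 by edgeR), with no overlap, and passed the adjusted p under each of the 19 alternatives tried (log2 from -0.84 to -0.67). Ass1 was at -0.61 (SE 0.19, adjusted p = 0.0821), and passed the adjusted p with length and GC trends removed (-0.67, adjusted p = 0.0242) and without RNY1+/+ library 1 (-0.74, adjusted p = 0.0436). Arg2 was at 0.12 (SE 0.28, adjusted p = 0.880) and Odc1 at 0.12 (SE 0.13, adjusted p = 0.678). Arg1 stood higher in all 4 RNY1-/- libraries than in any RNY1+/+ library, but its log2 difference of 0.34 (SE 0.13, 95% interval 0.02 to 0.66) had an adjusted p of 0.166 by edgeR.

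The Nos2 and Slc7a2 calls between ProteinFx genotypes were lost without some single libraries, while the fold changes moved little except for Slc7a2 without RNY1+/+ ProteinFx library 4. Nos2 lost its call without RNY1+/+ ProteinFx library 1 (adjusted p = 0.0530), 2 (0.0909) or 4 (0.147) and without RNY1-/- ProteinFx library 2 (0.0785) or 4 (0.0768), with log2 fold changes between -1.86 and -1.51. Slc7a2 lost it without RNY1+/+ library 3 (0.0629) or 4 (0.0968, log2 fold change -0.77) and without RNY1-/- library 1 (0.0832) or 2 (0.0790), with log2 fold changes between -1.12 and -1.02 in the other 3 cases. The pairs of RNY1-/- ProteinFx libraries were also kept apart. On libraries 3 and 4 alone, which held 4 and 7 counts of Nos2, it was at -2.92 (adjusted p = 0.00966 by edgeR). On libraries 1 and 2 alone Nos2 was at -1.34 (adjusted p = 0.0260 by edgeR). Slc7a2 was at -0.85 (adjusted p = 0.123) and -1.46 (adjusted p = 0.00444), and Gch1 at -0.76 and -0.75 (adjusted p = 0.00210 and 0.00121). Arg1 was at 0.14 (adjusted p = 0.437) on libraries 3 and 4 and at 0.50 (adjusted p = 0.00520) on libraries 1 and 2.

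Whether the genotype effect differed between fractions was tested directly over the 16 fraction libraries. Nos2 alone was called, 1 of 7 genes where 7.79% of all genes were, with a difference of -1.76 (log2, SE 0.62, adjusted p = 0.0370 by edgeR). Gch1 also passed the adjusted p, as did 33.0% of all genes, at -0.56 (SE 0.15, adjusted p = 0.0113). With length and GC trends removed these were -2.12 (adjusted p = 0.0186) and -0.42 (adjusted p = 0.0384). Gch1 stayed past the adjusted p in 25 of 27 alternatives, the exceptions being no filter (0.0583) and RNY1-/- ProteinFx libraries 3 and 4 alone (0.0526). Nos2 passed it in 15 of 27 alternatives, as with replicate number fitted as a block (-1.91, adjusted p = 0.00516 by edgeR). Nos2 missed the threshold with DESeq2 (-1.87, adjusted p = 0.0548), with library totals used instead of TMM scaling (-1.59, 0.0585), on RNY1-/- ProteinFx libraries 3 and 4 alone (-2.95, 0.0691) and on libraries 1 and 2 alone (-1.36, 0.0763). It also missed it without any 1 of 8 of the 16 libraries (EVFx RNY1+/+ 4 and RNY1-/- 1, 2 and 4, ProteinFx RNY1+/+ 2 and 4 and RNY1-/- 2 and 4), where the adjusted p lay between 0.0515 and 0.0912 and the difference between -1.75 and -1.52. For Slc7a2 the difference was -0.70 (SE 0.49, adjusted p = 0.265), so its genotype effects were not shown to differ between fractions.

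**Figure D4:**
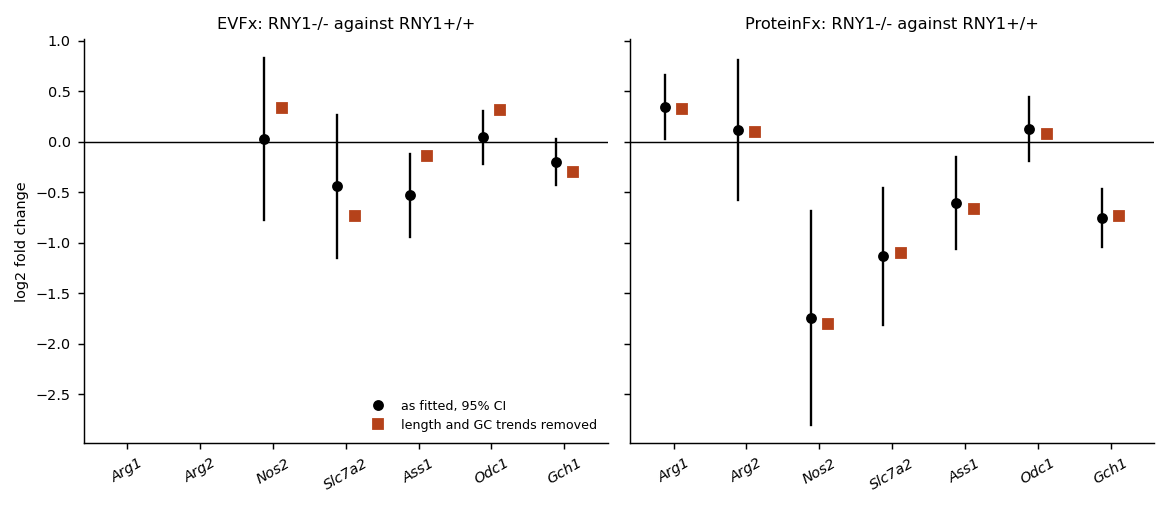
Log2 fold change of RNY1-/- against RNY1+/+ fluid in EVFx (left) and ProteinFx (right), as fitted with 95% confidence intervals (circles) and with length and GC trends removed (squares). In ProteinFx, Nos2 (-1.75), Slc7a2 (-1.14) and Gch1 (-0.76) lie below 0 under both fits, whereas in EVFx Ass1 moves from -0.53 to -0.14, and Arg1 and Arg2 are absent there because they fell under the filter.

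Other genes of arginine supply, nitric oxide regulation, tetrahydrobiopterin, polyamine and proline synthesis were counted from lists of 16, 12, 7, 18 and 7 genes. They were read without the alternative fits used for the 7 genes above. Whether their calls hold with length and GC trends removed or libraries left out was not tested. This matters most near the fold limit, as for Srm, Spr, Paox, Asl, Nostrin and the Slc7a6 difference of genotype effects below. Among arginine supply genes, 2 of the 9 tested were called higher and 2 lower in both EVFx comparisons with PBS, beside 16.4% (RNY1+/+) and 22.5% (RNY1-/-) of all genes called in either direction. With RNY1+/+ ProteinFx 3 were higher and 1 lower, beside 21.3%, and with RNY1-/- ProteinFx 2 were higher and 1 lower, beside 14.3%. Slc7a1, the constitutive cationic amino acid transporter, averaged 10.6 ± 1.95 CPM with PBS and 46.9 ± 1.16, 51.7 ± 4.37, 50.9 ± 4.49 and 45.9 ± 5.58 CPM in RNY1+/+ EVFx, RNY1-/- EVFx, RNY1+/+ ProteinFx and RNY1-/- ProteinFx (SD, n = 4). Its log2 rises were 2.33, 2.53, 2.43 and 2.18, and no treated library overlapped PBS. Slc7a6, which exchanges cationic for neutral amino acids, rose by 1.27 (SE 0.24), 1.71 (SE 0.22) and 1.48 (SE 0.27) in the first 3 groups and was the 1 gene of these lists called for a difference of genotype effects between fractions (-1.09, SE 0.30, adjusted p = 0.0127 by edgeR). By the adjusted p alone, 9 of the 37 tested passed there, beside 33.0% of all genes, with values for Asl of 0.87 (log2, SE 0.20, adjusted p = 0.00642) and for Gatm of -0.97 (log2, SE 0.31, adjusted p = 0.0245).

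Gatm, which joins arginine and glycine in the first step of creatine synthesis, split the fractions. It averaged 122 ± 28.5 CPM with PBS, 10.6 ± 3.22 and 18.3 ± 5.58 CPM with RNY1+/+ and RNY1-/- EVFx, and 852 ± 106 and 842 ± 191 CPM with RNY1+/+ and RNY1-/- ProteinFx. The log2 fold changes against PBS were -3.33 (SE 0.23) and -2.47 (SE 0.22) with EVFx and 2.98 (SE 0.17) and 2.87 (SE 0.22) with ProteinFx, with no overlap with PBS. Gamt, the enzyme of the next step, fell in all 4 comparisons, from 9.04 ± 3.16 CPM to group means between 0.822 and 3.16 CPM (log2 from -3.27 to -1.41). Asl, which completes the rebuilding of arginine after argininosuccinate synthase, was lower in RNY1+/+ ProteinFx than in RNY1+/+ EVFx (log2 -1.04, SE 0.13).

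**Figure D5:**
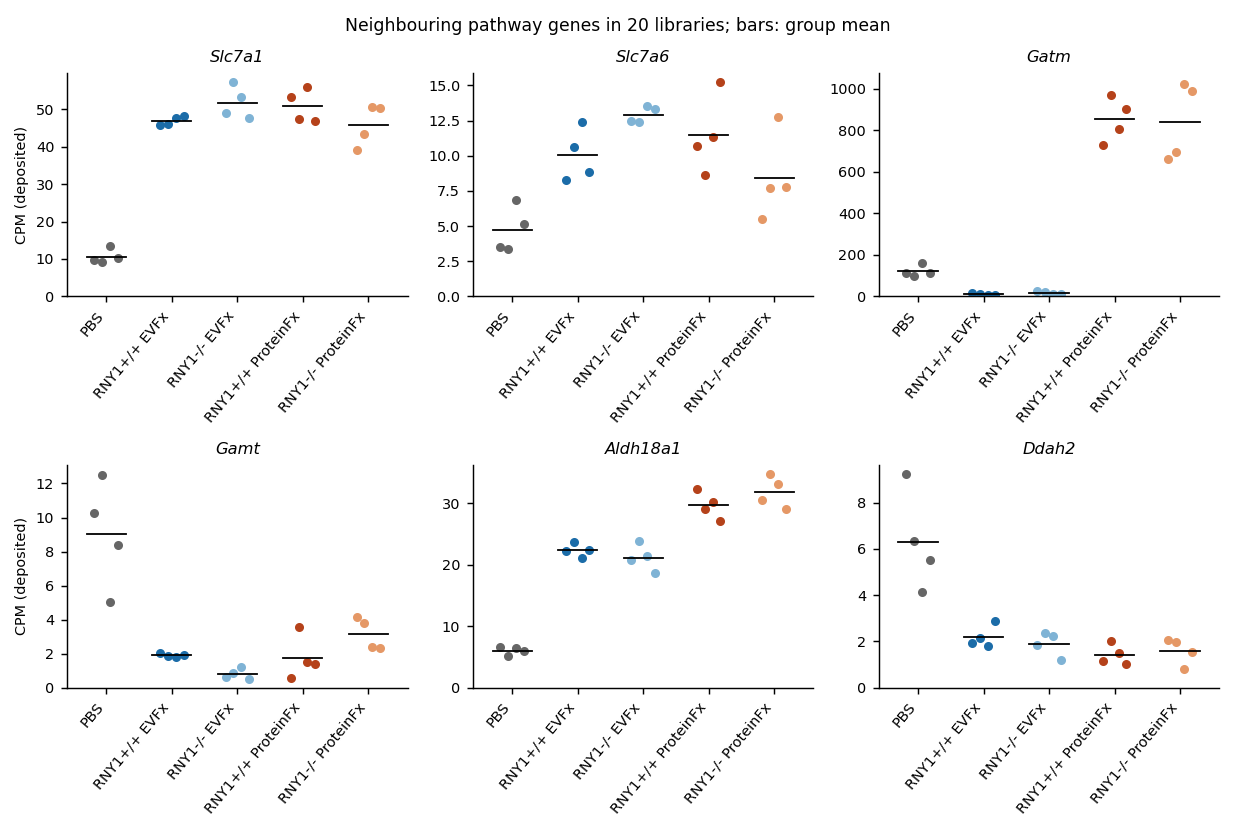
CPM of 6 further arginine and nitric oxide pathway genes in every library (points) with group means (bars), on linear axes from 0. Slc7a1 and Aldh18a1 are higher in all treated groups than with PBS, Gamt and Ddah2 are lower, and Gatm averages 10.6 and 18.3 CPM with EVFx against 852 and 842 CPM with ProteinFx.

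Of the nitric oxide regulators, Ddah2, which degrades methylated arginines that inhibit nitric oxide synthase, fell in all 4 comparisons from 6.30 ± 2.15 CPM to means between 1.43 and 2.19 CPM (log2 from -1.997 to -1.32). Nostrin, which traffics endothelial nitric oxide synthase, fell with RNY1+/+ ProteinFx from 34.8 ± 2.55 to 14.9 ± 2.699 CPM (log2 -1.05, SE 0.15), and none of the 5 tested was called higher. In the order RNY1+/+ EVFx, RNY1-/- EVFx, RNY1+/+ ProteinFx and RNY1-/- ProteinFx, 1, 1, 2 and 1 of the 5 nitric oxide regulators and 1, 2, 1 and 2 of the 15 polyamine genes were called against PBS, beside 16.4%, 22.5%, 21.3% and 14.3% of all genes. In the tetrahydrobiopterin list, Spr, the last enzyme of the cofactor's synthesis, fell with RNY1-/- EVFx (-1.02, SE 0.21). Of 15 polyamine genes tested, Paox, a polyamine oxidase, fell with EVFx (-1.09 and -1.73) and exceeded EVFx in both ProteinFx groups (1.00 and 1.52), Dohh, which completes the polyamine-dependent modification of a translation factor, fell with ProteinFx (-1.19 and -1.16), Srm, spermidine synthase, fell with RNY1-/- ProteinFx (-1.004, SE 0.33), and Azin1, which protects ornithine decarboxylase from degradation, rose with RNY1-/- EVFx (1.42, SE 0.19). Aldh18a1, which starts proline synthesis from glutamate, rose in all 4 comparisons (2.08, 2.06, 2.47 and 2.47), the 1 called of 5 tested in its list. Between donor genotypes within a fraction, edgeR called 0 of 35 tested in EVFx, beside 2.35% of all genes, and 0 of 37 in ProteinFx, beside 1.82%. By the adjusted p alone, 21 of 35 passed in EVFx, beside 52.1% of all genes, and 2 of 37 in ProteinFx, beside 5.57%. At an unadjusted p under 0.05 alone, 24 of 35 passed in EVFx, beside 58.4% of all genes, and 9 of 37 in ProteinFx, beside 19.3%.

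Across the 20 libraries the genes formed 2 sets by Pearson's r of TMM-scaled log2 CPM. Arg1 went with Arg2 and Slc7a2 (r = 0.89 each), and Gch1 went with Nos2 and Ass1 (r = 0.94 each), whereas Arg1 and Nos2 were at 0.04 and Odc1 reached at most 0.46 with any of the others. The libraries fall into treatment groups that stand apart, so these r values describe group levels. Among 7552 other genes (7553 for Nos2) with a mean of at least 10 CPM, those most like Arg1 were Ccl7, a monocyte chemokine (0.97), Ldha, lactate dehydrogenase (0.96), and Il1rl2, a receptor of the interleukin-1 family (0.96). Slc7a2 was most like Mmp13, a collagenase (0.98), Gm56663 (0.97) and Il1rl2 (0.96), and Nos2 most like Gm20547 (0.96), Cfb, complement factor B (0.96), and Saa3, an acute-phase protein (0.95). Ass1 was most like H2-M2 (0.98), H2-Q7 (0.98) and Stx11 (0.98), Gch1 like Car13 (0.98), Bcl2a1a (0.98) and Fpr2, a formyl peptide receptor (0.98), and Odc1 like Cfap97 (0.81), Bnip3 (0.71) and Kdm3a (0.61).

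Markers of other cells that fluid or cultures could hold were read beside these results. Of 8 eosinophil markers, Epx and Il5ra were at 0 in all libraries, and the summed level, 7.65 to 13.6 CPM with PBS, 0.801 to 2.46 CPM with EVFx and 12.7 to 21.4 CPM with ProteinFx, was carried by Ccr3 (8.47 ± 3.26 CPM with PBS, 0.918 ± 0.167 and 1.503 ± 0.676 with RNY1+/+ and RNY1-/- EVFx, 15.9 ± 2.24 and 12.9 ± 3.19 with RNY1+/+ and RNY1-/- ProteinFx). This sum thus moved in the direction of Arg1 between fractions, and its part in that result was not tested. Of 10 neutrophil markers, S100a8 and S100a9 were the ones at 10 CPM or more, with summed levels of 288 to 336 CPM with PBS, 144 to 266 CPM with EVFx and 199.5 to 357 CPM with ProteinFx. Summed markers of T cells reached at most 9.43 CPM, of B cells 16.2 CPM, of fibroblasts 51.6 CPM and of airway epithelium 33.6 CPM, each highest in a PBS library, and Sftpc, Sftpa1 and Scgb3a2 were at 0 in all libraries.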

How the data were processed

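Gene-level read counts and CPM values of each library were deposited by the authors. Per the submitters' processing notes, reads were handled with fastp 0.24.0, STAR 2.7.11 and featureCounts of Subread 2.1.1 on build GRCm39. Per the methods of the study, reads were deduplicated by UMI and counted by strand, and reads with several matches were shared among them, so the deposited values are expected counts that need not be whole. They were rounded to whole numbers. The levels given are the CPM values as deposited, which scale a gene's count by its library's total and were described but not tested. The 92 spike-in entries (44 to 124 counts per library, at most 0.00305%) were left out of the fits.

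Each comparison was fitted over its 8 libraries, and the difference between genotype effects over the 16 fraction libraries, with edgeR 4.0.16 (R 4.3.3) by the quasi-likelihood test with TMM scaling, on genes that passed filterByExpr and a mean of 3 CPM. P-values were adjusted by Benjamini-Hochberg over all genes tested. The call needed both an adjusted p under 0.05 and a log2 fold change beyond 1 in either direction. Log2 CPM values for the correlations and the trend removal use a prior count of 2, and fitted log2 fold changes use edgeR's default. The scripts were tested on simulated data. Alternatives were DESeq2 1.42.0, other scaling and filters, all 20 libraries in 1 fit, a replicate block, removal of trends in transcript length and GC (splines with 4 degrees of freedom, transcripts of GRCm38), other pseudocounts for the ratio, and leaving out libraries.

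All 7 genes were described by level in every group. Fitted values were not printed for each gene in each comparison. Pathway genes were named where called, in the comparisons of RNY1+/+ fractions with PBS at a mean of 10 CPM or more. Pathway genes named beyond this rule (Slc7a6, Gamt, Ddah2 and Paox in the comparisons with PBS, Spr, Azin1 and Srm, and Asl and Gatm for the difference of genotype effects) were chosen after their values were seen. A result on 1 pathway gene is not reported here. Genes of like pattern were the 3 with the highest r for each gene with a mean of 3 CPM or more. The genes and lists were chosen with earlier results of these data known. Deviations of same-numbered libraries correlated over 0.1 in every pair in RNY1-/- EVFx against PBS (0.13 to 0.38). They did so too in RNY1-/- ProteinFx against RNY1-/- EVFx (0.22 to 0.40). For replicate 1, however, a differently numbered library correlated more, at 0.18 against 0.14 in the first comparison and 0.35 against 0.22 in the second. The same held for replicate 4 in the first (0.28 against 0.13). Replicates 2 and 3 there correlated most with their own number (0.38 against 0.29 and 0.24 against -0.12). In the second, replicates 2, 3 and 4 did too (0.40 against 0.21, 0.29 against 0.22 and 0.27 against 0.12). Replicate numbers were thus not shown to pair the libraries throughout, and the labels do not tell. UMIs were used, so counts stand for molecules, and intervals of count ratios are exact and cover counting error only.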

Additional observations from a re-analysis of the deposited data

Results flagged for a closer look

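Of 35 groups of 4 libraries (7 genes, 5 treatments), all but Nos2 with PBS, at or under 2 counts, were checked by Dixon's criterion. A library far from the other 3 was found in 2 groups, and chance gives about 1 in 20. Gch1 stood at 25.4 CPM in its highest PBS library, against 19.2 to 20.2 CPM in the others. Odc1 stood at 27.7 CPM in its highest RNY1+/+ EVFx library, against 23.9 to 24.2 CPM in the others.

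By the adjusted p alone, the effect of the donors' genotype differed between ProteinFx and EVFx in 2 of 7 genes, beside 33.0% of all genes. The test was edgeR's quasi-likelihood test of the difference. For Nos2 it was -1.76 (log2, SE 0.62, adjusted p = 0.0370) and for Gch1 -0.56 (log2, SE 0.15, adjusted p = 0.0113). Nos2 missed the threshold with DESeq2 (adjusted p = 0.0548), with library totals in edgeR (0.0585) and in 8 of 16 fits without a single library. The causes were not tested.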

How the results depend on the processing

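Of 1014 refitted log2 fold changes of the 7 genes, 955 stayed on their side of the adjusted p, 30 crossed to below 0.05, 29 crossed to above it and 0 reversed past it. For the donors' genotype in EVFx (0 genes called), 1 was called by the adjusted p alone (Ass1) and 1 with no filter (Arg2). In ProteinFx (2 called), 1 was called with a replicate block and the length and GC trends removed, 1 without RNY1-/- ProteinFx libraries 1 and 2, and 0 to 2 without single libraries. For the difference between those effects (1 called), 2 were called by the adjusted p alone (Nos2 and Gch1), 2 with a replicate block (Arg2 and Nos2), 0 with DESeq2, 0 with library totals instead of TMM, 0 without RNY1-/- ProteinFx libraries 1 and 2, 0 without libraries 3 and 4, and 0 to 1 without single libraries. The replicate block changed no other number of genes called by over 1.5 times. Same-numbered libraries correlated from -0.37 to 0.64 over the comparisons. The Nos2 to Arg1 measure in RNY1+/+ EVFx, 3.37 with a pseudocount of 1 CPM, was 4.06 with 0.5 and 2.64 with 2. Library totals instead of TMM moved log2 fold changes against PBS by -0.18, -0.24, -0.15 and -0.06 for RNY1+/+ EVFx, RNY1-/- EVFx, RNY1+/+ ProteinFx and RNY1-/- ProteinFx. The causes were not tested. Depth limits Arg1 with EVFx, Nos2 with PBS and Arg2 outside ProteinFx, which rest on 0 to 12 counts per library there. Arg2 with ProteinFx rests on 12 to 30 counts. Nos2 with RNY1-/- ProteinFx is limited too, at 4 to 40 counts.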
